A study of Homo sapiens with 12 samples.

Results

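The data concern 44 genes known to be induced by androgen in LNCaP prostate cancer cells, the kallikreins left aside, out of 60675 genes counted in each library. The members were chosen by name as known androgen targets, and all 44 were found once by their gene symbol. No library without androgen was analysed here, so the induction itself was not measured and the comparisons below are those between treatments that all contain androgen.

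Androgens change transcription in prostate epithelial cells through androgen response elements, mostly in enhancers that the pioneer factor FOXA1 has opened. The genes they induce include proteases, lipid and polyamine enzymes, transporters, kinases and FKBP5, which binds to the Hsp90 complexes of steroid receptors. KDM1A and KDM7A are demethylases that remove methyl groups from histone lysines, and both have been described as coregulators of androgen-driven transcription.

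RNA was measured in cells labelled LNCaP, the name of a human prostate cancer line that depends on androgen. It was also measured in LNCaP:C4-2 cells (C4-2), a castration-resistant line derived from LNCaP. R1881, a synthetic androgen, was present at 1 nM in every one of the 12 cultures, which were treated for 72 h. The methods give hormone-depleted serum for work with R1881. The C4-2 groups were R1881 alone, with namoline at 50 µM (a KDM1A inhibitor), with TCE-5002 (a KDM7A inhibitor) and with both inhibitors, called the combination. TCE-5002 also targets the demethylases KDM7B and KDM2A, as the study states, so its effects cannot be assigned to KDM7A alone. The libraries labelled LNCaP were R1881 alone and the combination, and each of the 6 groups held 2 libraries that the study's methods call biological replicates. R1881 alone contained the DMSO vehicle per those methods. TCE-5002 is given as 100 µM in the series description and at a lower dose in the methods, so its dose is uncertain. The same control libraries entered every C4-2 comparison with R1881 alone, so these comparisons are not independent of each other.

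Library totals ran from 14791602 to 20690819 counts, and the members took from 0.276% to 1.31% of them. The column name inside the file of LNCaP combination replicate 1 names namoline without TCE-5002, whereas its title names both, so the median and the named values of the LNCaP-labelled combination are also given without it. The libraries labelled LNCaP stood apart from C4-2 in their summed markers. The 7 luminal epithelial markers summed to between 266 and 684 CPM against 1832 to 2712 CPM in C4-2. The 8 mesenchymal markers summed to between 766 and 941 CPM against 63.2 to 102 CPM. With R1881 alone, 6 of the 7 luminal markers read higher in C4-2. KLK3 was the exception, at 206 and 228 CPM in C4-2 against 397 and 355 CPM in the LNCaP-labelled libraries. Of 7 mesenchymal markers tested, 6 read lower in C4-2 with R1881 alone. COL1A1 was the exception, at 49.5 and 50.8 CPM in C4-2 against 4.88 and 4.003 CPM. NR3C1, the glucocorticoid receptor, which binds response elements much like the androgen ones, was at 51.6 and 55.1 CPM in the LNCaP-labelled libraries with R1881 alone and at 0.328 and 0.585 CPM in those of C4-2. The mitochondrial share of counts was 1.91% to 2.43% in the LNCaP-labelled libraries and 5.58% to 10.1% in C4-2, highest with namoline. All 3 basal markers were under 1 CPM in every library. These lines are therefore named by their labels below, and whether the cells were as labelled was not tested. In bulk RNA of this kind, fewer cells of one type and less RNA per cell cannot be told apart.

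In C4-2, the summed level of the members was higher with either inhibitor and lower with both together, and 18 of the 44 fell with both. Levels are given as CPM (counts scaled to library size with TMM factors) in replicate 1 and then replicate 2. A member is said to have risen or fallen where it passed an adjusted p-value of 0.05 and a 2-fold change. The 44 members summed to 9209 and 9350 CPM with R1881 alone. With namoline the sums were 13190 and 14270 CPM, and with TCE-5002 they were 13568 and 12399 CPM. With the combination they were 5689 and 5149 CPM. Both single-inhibitor groups lay above R1881 alone and overlapped each other, and the combination lay below all of them. ABHD2 alone made 27.1% and 27.5% of the sum with R1881 alone. Leaving it out gave 6714 and 6781 CPM with R1881 alone against 4638 and 4245 CPM with the combination.

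**Figure D1:**
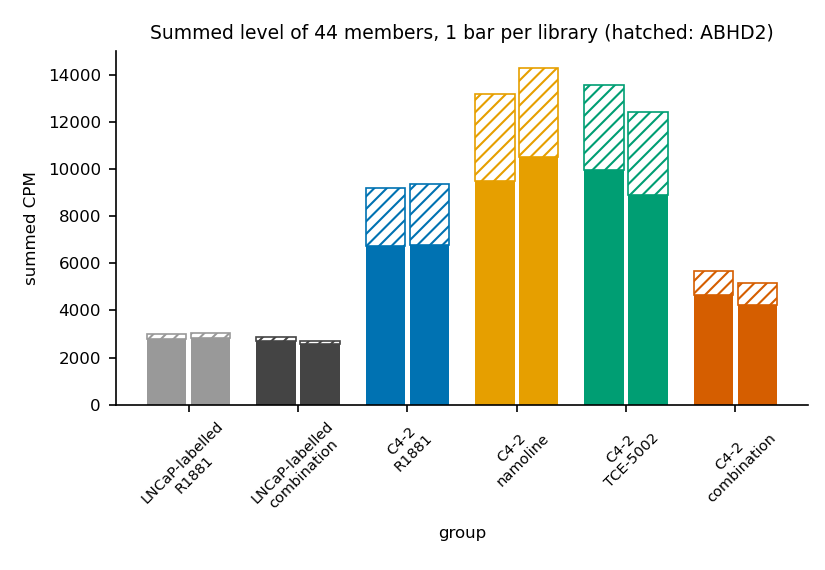
Bars show the summed CPM of the 44 members in each of the 12 libraries, 1 bar per library, with the part of ABHD2 hatched. In C4-2 the sum was higher with either single inhibitor than with R1881 alone and lowest with the combination, and it was lower still in the libraries labelled LNCaP.

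By the call on both thresholds, 3 members rose and 3 fell with namoline (6.82% each way), against 5.17% of 17702 genes tested that rose and 6.88% that fell. With TCE-5002 3 rose and 1 fell, against 5.04% and 6.8% of all genes. These shares lay near those of all genes. By the adjusted p alone, 22 members were higher with namoline (50% of 44, against 18.7% of all genes) and 4 lower (16.3% of all genes). With TCE-5002 19 were higher by the adjusted p alone (43.2%, against 19.9% of all genes) and 3 lower (16.7% of all genes), together 22 against 36.5% of all genes. The median member differed by 0.42 (log2) with namoline and 0.32 with TCE-5002, while the median over all genes was -0.0043 and -0.00014.

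With the combination, 18 of the 44 members fell (40.9%), against 12.8% of all genes, and the median member changed by -0.87, against -0.034 over all genes. None rose by edgeR's quasi-likelihood test on both thresholds (8.87% of all genes rose), 5 were higher at an unadjusted p under 0.05, and DESeq2 called 1, WIPI1. By the adjusted p alone 29 were lower (25.6% of all genes) and 3 higher (24.8% of all genes), together 32 against 50.3% of all genes. Both combination libraries lay below all 6 other C4-2 libraries for 32 of the 44 members (72.7%), against 24.1% of all genes tested. The 18 that fell were MAF, AZGP1, TSC22D3, PLPP1, PART1, KCNN2, SGK1, ALDH1A3, CAMKK2, ABHD2, PMEPA1, ABCC4, CHRNA2, HPGD, GUCY1A1, NDRG1, SORD and VIPR1, with log2 fold changes from -2.88 to -1.12. The summed luminal markers were also lower with the combination, at 1832 and 1893 CPM against 2117 to 2712 CPM in the other C4-2 libraries, though KRT8 among them was higher by the adjusted p alone (0.56 ± 0.12, adjusted p = 0.0013). The 4 neuroendocrine markers summed to 23.5 and 23.1 CPM with the combination against 8.57 and 8.25 CPM with R1881 alone. Of 4 mesenchymal markers tested, 1 rose, ZEB1 (3.58 ± 0.43, adjusted p = 1.2e-05), and 2 fell (8.87% and 12.8% of all genes). ZEB1 was scarce with R1881 alone, at 0.655 and 0.195 CPM, against 5.05 and 6.26 CPM with the combination. By the adjusted p alone 2 were higher (24.8% of all genes), ZEB1 and COL1A1. COL1A1 went from 49.5 and 50.8 CPM with R1881 alone to 70.8 and 85.5 CPM. FN1 went from 26.9 and 28.1 CPM with R1881 alone to 9.53 and 9.13 CPM, and VIM from 2.62 and 2.27 CPM to 1.30 and 1.19 CPM. The part of these markers in the result was not tested. PART1 lost the call without R1881 replicate 1 (-1.45, adjusted p = 0.07), and VIPR1 did so without R1881 replicate 2 (-0.97) or combination replicate 2 (-0.95).

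**Figure D2:**
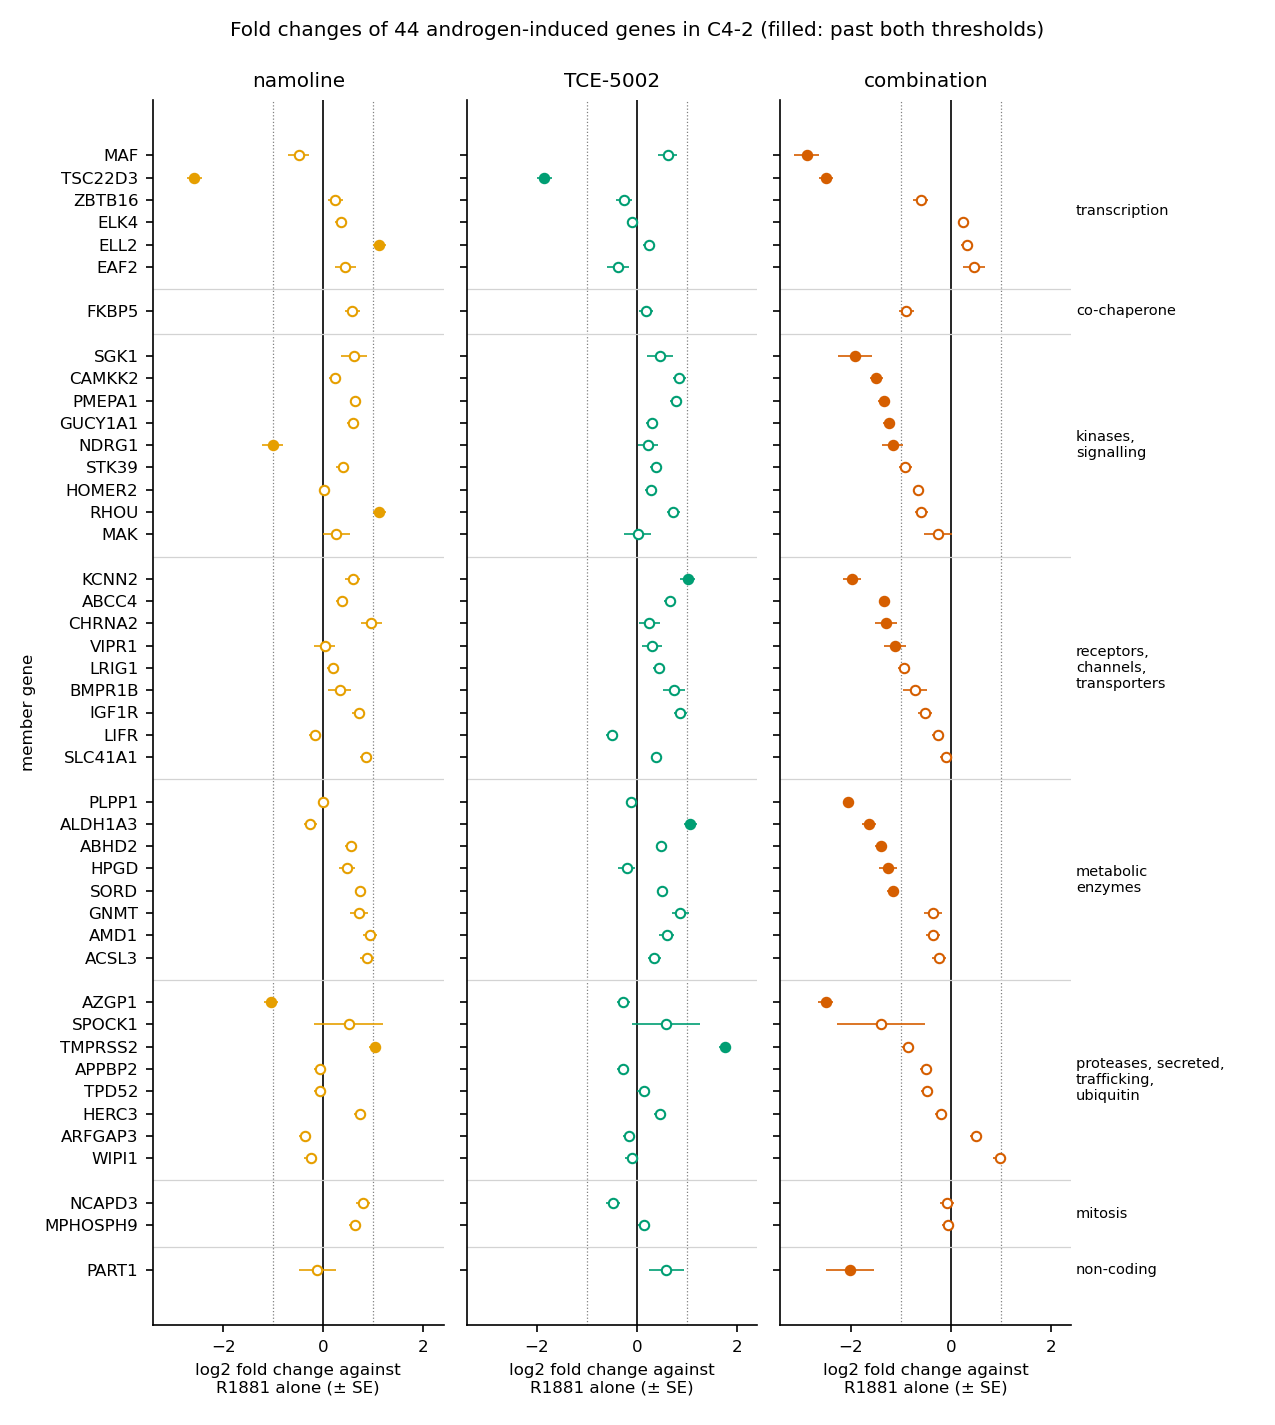
Each point is the log2 fold change of 1 member in C4-2 against R1881 alone, with its standard error as a bar, for namoline, TCE-5002 and the combination, and members are grouped by role and ordered by the combination value. Filled points passed both thresholds, which 6, 4 and 18 members did, and dotted lines mark a 2-fold change.

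The interaction compares the combination with the sum of the separate effects on the log2 scale. It was negative and past both thresholds for 29 members (65.9%), against 18.6% of all genes, and positive for 3 (6.82%), against 16.7%. The median member had an interaction of -1.61, while the median over all genes was -0.012. The negative values ran from -3.65 (TMPRSS2) to -1.03 (ELL2), and the 3 positive ones were TSC22D3, WIPI1 and ARFGAP3. ELL2 was the least firm, since RLE scaling (-0.98), DESeq2 (-0.98) and the removal of 1 of 4 different libraries each took it below the 2-fold limit. Of the members without a call, 8 had an adjusted p above 0.05.

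**Figure D3:**
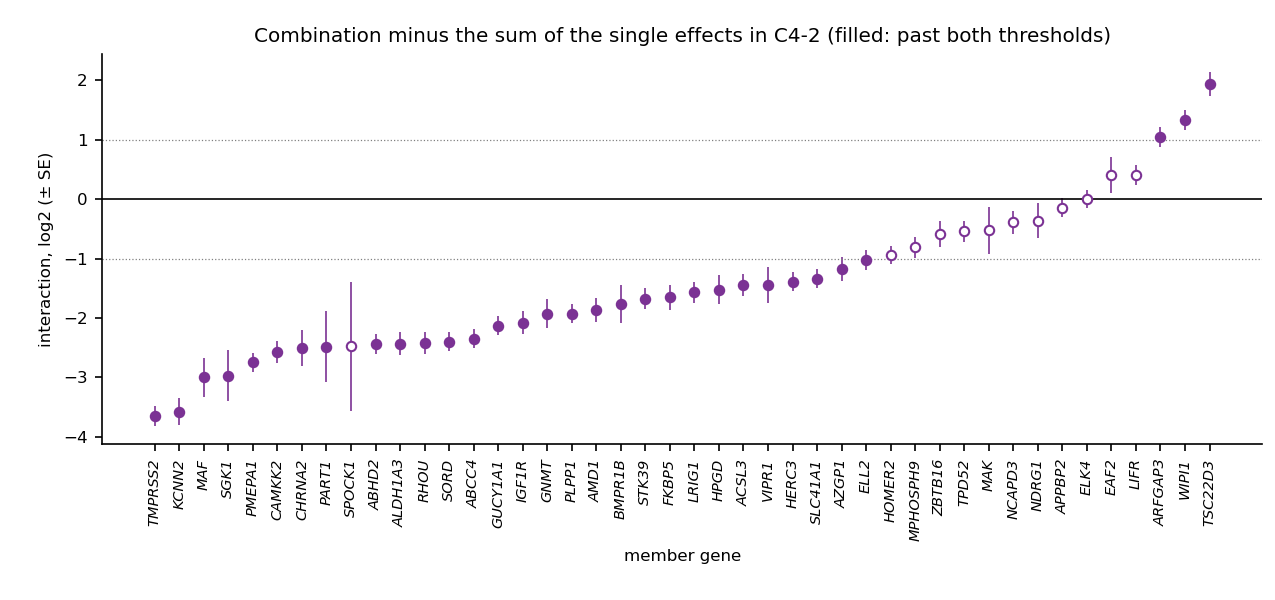
Points show the interaction on the log2 scale for the 44 members in C4-2, ordered by value, with standard errors as bars and filled points past both thresholds. A value of 0 means that the combination equalled the sum of the single effects, and 29 filled points lie below it and 3 above.

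TMPRSS2 encodes a transmembrane serine protease whose androgen-driven promoter is often fused to ETS genes in prostate tumours. The gene lies on chromosome 21 from 41464551 to 41531116 (GRCh38, minus strand). In C4-2 it stood at 376 and 401 CPM with R1881 alone, 745 and 854 CPM with namoline, 1290 and 1343 CPM with TCE-5002, and 235 and 200 CPM with the combination. The 4 groups did not overlap. It rose by 1.03 ± 0.12 on the log2 scale (± SE) with namoline (adjusted p = 1.8e-05) and by 1.76 ± 0.12 with TCE-5002 (adjusted p = 3.5e-07). The combination value was -0.86 ± 0.12 (adjusted p = 4.5e-05), which is short of 2-fold. The interaction, at -3.65 ± 0.17 (adjusted p = 2.3e-09), was the lowest among the 44 members. The namoline call rested on values just above the limit and was lost without R1881 replicate 1 (0.99), without namoline replicate 2 (0.91) and under GC correction (0.997).

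FKBP5, the co-chaperone that binds Hsp90 in steroid receptor complexes, lies on chromosome 6 from 35573585 to 35728583 (minus strand). It stood at 551 and 541 CPM with R1881 alone, 747 and 907 CPM with namoline, 704 and 534 CPM with TCE-5002, and 331 and 268 CPM with the combination. The TCE-5002 libraries lay on both sides of those with R1881 alone. FKBP5 passed the adjusted p alone with namoline (0.58 ± 0.15, adjusted p = 0.0068) and with the combination (-0.89 ± 0.15, adjusted p = 2.0e-04), and did not with TCE-5002 (0.18 ± 0.15, adjusted p = 0.36). Its interaction was -1.65 ± 0.21 (adjusted p = 1.2e-05). Without combination replicate 1 the combination value was -1.05 and passed both thresholds.

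RefSeq promoter windows (GRCh38.p14, 250 bases before to 50 after an annotated start) were matched for 35 of the 44 members, in 60 windows. The androgen response element is a palindrome of a half-site, AGAACA, and its reverse complement, TGTTCT, with 3 free bases between them. The half-site was present on either strand in 6 of the 60 member windows (10.0%), against 14.8% of 35116 windows of all genes. The whole element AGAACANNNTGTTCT was in 0 member windows and in 1 window of all genes. The 5 members with a half-site were FKBP5, SGK1, PMEPA1, STK39 and LIFR. A window holds only the bases beside the start, and most known androgen response elements in use are distal, so these matches are a description. The sequences that follow are the window of FKBP5 and those of PMEPA1 and SGK1, a pair of members that fell with the combination in C4-2, each on the minus strand with the half-site in capitals.
FKBP5 (chr6:35728534-35728833): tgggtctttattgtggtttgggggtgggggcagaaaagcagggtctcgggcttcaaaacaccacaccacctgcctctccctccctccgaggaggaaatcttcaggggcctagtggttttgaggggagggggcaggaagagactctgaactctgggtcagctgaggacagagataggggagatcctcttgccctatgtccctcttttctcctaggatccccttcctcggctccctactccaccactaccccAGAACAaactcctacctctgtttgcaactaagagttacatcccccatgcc
PMEPA1 (chr20:57711423-57711722): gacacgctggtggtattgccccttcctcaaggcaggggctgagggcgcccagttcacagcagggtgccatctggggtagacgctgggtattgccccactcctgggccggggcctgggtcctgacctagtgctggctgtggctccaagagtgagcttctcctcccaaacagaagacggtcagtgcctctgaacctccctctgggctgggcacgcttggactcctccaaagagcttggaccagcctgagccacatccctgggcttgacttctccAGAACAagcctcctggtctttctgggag
SGK1 (chr6:134177812-134178111): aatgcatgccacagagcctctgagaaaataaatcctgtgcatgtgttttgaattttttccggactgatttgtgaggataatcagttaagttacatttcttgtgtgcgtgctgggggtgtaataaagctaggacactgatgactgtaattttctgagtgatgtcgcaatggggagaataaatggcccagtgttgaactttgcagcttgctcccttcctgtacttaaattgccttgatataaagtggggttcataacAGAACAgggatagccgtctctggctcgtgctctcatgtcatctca
The half-site began at base 251 of the FKBP5 window, 273 of the PMEPA1 window shown and 256 of the SGK1 window, counted from the 5′ end. In these 3 windows it lay within the first transcribed bases of the annotated starts. Another PMEPA1 window (chr20:57710528-57710827), not shown, held the reverse complement TGTTCT from base 22, 229 bases before its annotated start.

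Among the 6 transcription and elongation factors, 2 fell with the combination in C4-2 (12.8% of all genes fell) and the other 4 did not pass both thresholds. MAF, a leucine zipper transcription factor on chromosome 16 from 79585843 to 79600714, had the lowest combination value of all members. It stood at 9.92 and 11.8 CPM with R1881 alone, 6.09 and 9.41 CPM with namoline, 15.8 and 17.2 CPM with TCE-5002, and 1.53 and 1.44 CPM with the combination. It fell by 2.88 ± 0.25 on the log2 scale with the combination (adjusted p = 7.2e-07), with an interaction of -2.996 ± 0.33 (adjusted p = 2.8e-06).

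TSC22D3 had a pattern of its own among the 44. It encodes GILZ, a leucine zipper protein best known as a glucocorticoid target, on the X chromosome from 107713221 to 107777342. It stood at 108 and 121 CPM with R1881 alone and at 16.3 and 22.4 CPM with namoline. With TCE-5002 it was at 32.8 and 30.5 CPM, and with the combination at 20.03 and 21.3 CPM. The combination libraries lay within the range of the namoline libraries. It fell by 2.58 ± 0.15 with namoline (adjusted p = 3.5e-08), by 1.85 ± 0.14 with TCE-5002 (adjusted p = 7.2e-07) and by 2.49 ± 0.15 with the combination (adjusted p = 1.8e-08). It was the one member called lower in each of the 3 comparisons, and its interaction was the highest among the members at 1.94 ± 0.21 (adjusted p = 2.3e-06).

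ELL2, an elongation factor of RNA polymerase, rose by 1.12 ± 0.12 with namoline (adjusted p = 9.9e-06). It stood at 101 and 95.3 CPM with R1881 alone, 211 and 221 CPM with namoline, 126 and 105 CPM with TCE-5002, and 135 and 116 CPM with the combination. Its partner EAF2 was between 4.45 and 11.1 CPM in the 8 C4-2 libraries and passed no threshold with either inhibitor or both. ELK4, an ETS factor that acts with SRF, and ZBTB16, a zinc finger repressor, did not reach a 2-fold change in these 3 comparisons, with log2 fold changes from -0.10 to 0.35 and from -0.60 to 0.24.

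Of the 9 kinases and signalling genes, 5 fell with the combination, against 12.8% of all genes. These were SGK1, a serum- and glucocorticoid-induced kinase, CAMKK2, which activates AMPK, PMEPA1, which dampens TGF-beta signalling, GUCY1A1, a subunit of soluble guanylate cyclase, and NDRG1, a stress and differentiation gene. All 9 had negative combination values, with a median of -1.16. SGK1 was scarce. It stood at 2.29 and 3.31 CPM with R1881 alone, 3.79 and 4.74 CPM with namoline, 4.14 and 3.43 CPM with TCE-5002, and 0.681 and 0.813 CPM with the combination. Its combination value was -1.91 ± 0.34 (adjusted p = 3.4e-04) and its interaction -2.97 ± 0.42 (adjusted p = 3.6e-05).

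RHOU, a small GTPase that acts on the actin cytoskeleton, rose by 1.11 ± 0.13 with namoline (adjusted p = 1.7e-05). It was at 129 and 136 CPM with R1881 alone, 255 and 325 CPM with namoline, 229 and 208 CPM with TCE-5002, and 96.6 and 82.9 CPM with the combination. Both inhibitor groups lay above R1881 alone and the combination lay below it. Without namoline replicate 2 the RHOU value was 0.92 and short of 2-fold.

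NDRG1 behaved otherwise. It was at 119 and 126 CPM with R1881 alone, 43.8 and 78.5 CPM with namoline, 117 and 168 CPM with TCE-5002, and 52.9 and 58.4 CPM with the combination. The 2 namoline libraries and the 2 TCE-5002 libraries each differed widely, and the combination lay inside the range of namoline. It fell by 1.01 ± 0.21 with namoline (adjusted p = 0.0019) and by 1.16 ± 0.21 with the combination (adjusted p = 4.2e-04). Without namoline replicate 1 the namoline value was -0.67, and without R1881 replicate 2 it was -0.97. Its interaction of -0.37 ± 0.30 was not past the test (adjusted p = 0.32).

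The 9 receptors, channels and transporters all had negative combination values, and 4 fell, against 12.8% of all genes: KCNN2, a calcium-activated potassium channel, ABCC4, an exporter of cyclic nucleotides and drugs, CHRNA2, a nicotinic receptor subunit, and VIPR1, a receptor for vasoactive intestinal peptide. KCNN2, on chromosome 5 from 114360945 to 114496500, was at 14.1 and 15.2 CPM with R1881 alone and at 20.1 and 24.3 CPM with namoline. It was at 27.2 and 31.9 CPM with TCE-5002 and at 3.69 and 3.88 CPM with the combination. The 4 groups did not overlap, and both single inhibitors lay above R1881 alone. KCNN2 rose by 1.01 ± 0.15 with TCE-5002 (adjusted p = 1.6e-04), fell by 1.98 ± 0.18 with the combination (adjusted p = 9.4e-07) and had an interaction of -3.57 ± 0.23 (adjusted p = 2.3e-08). Its TCE-5002 value was below 2-fold under GC correction (0.92), without R1881 replicate 1 (0.97) and without TCE-5002 replicate 2 (0.90). The interaction was negative and past both thresholds for 8 of the 9 genes of this group, against 18.6% of all genes, LIFR being the exception at 0.41 ± 0.17 (adjusted p = 0.057).

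Among the 8 metabolic enzymes the interaction was negative and past both thresholds for all 8, from -2.43 to -1.45, against 18.6% of all genes. With the combination 5 of the 8 fell, against 12.8% of all genes. PLPP1, a phosphatase of lipid phosphates on chromosome 5 from 55424854 to 55535050, was at 128 and 125 CPM with R1881 alone, 121 and 134 CPM with namoline, 119 and 114 CPM with TCE-5002, and 31.3 and 31.0 CPM with the combination. Neither single inhibitor moved it past the test (-0.0008 ± 0.11, adjusted p = 0.996, and -0.12 ± 0.11, adjusted p = 0.40). It fell by 2.05 ± 0.11 with the combination (adjusted p = 1.0e-08). Its span overlaps that of MTREX on the opposite strand, and strand was not used in counting. What this did to the PLPP1 counts was not tested.

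ALDH1A3, which makes retinoic acid, separated the inhibitors. It was at 28.1 and 27.0 CPM with R1881 alone, 24.4 and 22.1 CPM with namoline, 57.9 and 57.0 CPM with TCE-5002, and 9.59 and 8.51 CPM with the combination. It rose by 1.06 ± 0.13 with TCE-5002 (adjusted p = 2.8e-05) and fell by 1.63 ± 0.14 with the combination (adjusted p = 6.5e-07), while the namoline value was -0.26 ± 0.13 (adjusted p = 0.14). ABHD2, a lipid hydrolase on chromosome 15 from 89087459 to 89202360, had the highest level per kilobase of the 44 members in C4-2 with R1881 alone, at a mean of 245 CPM per kb. It was at 2495 and 2568 CPM with R1881 alone, 3712 and 3769 CPM with namoline, 3599 and 3498 CPM with TCE-5002, and 1050 and 903 CPM with the combination. It fell by 1.40 ± 0.12 with the combination (adjusted p = 6.0e-07). ACSL3, an acyl-CoA synthetase, and AMD1, which makes the aminopropyl donor of polyamines, were higher with namoline by the adjusted p alone (0.87 ± 0.14 and 0.93 ± 0.14) and passed both thresholds under GC correction (1.00 and 1.07).

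Among the 8 proteases, secreted, trafficking and ubiquitin genes, AZGP1 alone fell with the combination, against 12.8% of all genes. AZGP1 is a secreted zinc-binding glycoprotein encoded on chromosome 7 from 99966720 to 99976157. It was at 44.1 and 50.1 CPM with R1881 alone, 21.0 and 24.9 CPM with namoline, 37.6 and 40.1 CPM with TCE-5002, and 7.89 and 9.07 CPM with the combination. It fell by 1.05 ± 0.14 with namoline (adjusted p = 4.6e-05) and had a combination value of -2.498 ± 0.15 (adjusted p = 2.0e-08). The namoline value was short of 2-fold without R1881 replicate 2 (-0.96) or namoline replicate 1 (-0.95).

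The trafficking genes WIPI1 and ARFGAP3 were among 5 members with positive combination values in C4-2, against 39 with negative ones. The other 3 were the transcription and elongation factors ELL2, ELK4 and EAF2. WIPI1, which binds phosphoinositides on forming autophagosomes, was at 33.7 and 32.2 CPM with R1881 alone, 28.4 and 27.5 CPM with namoline, 32.5 and 28.6 CPM with TCE-5002, and 66.8 and 64.7 CPM with the combination. Both combination libraries lay above the other 6. The combination value was 0.97 ± 0.12 (adjusted p = 1.6e-05), and the interaction was 1.33 ± 0.17 (adjusted p = 1.6e-05). The combination value passed 2-fold with RLE scaling (1.00), DESeq2 (1.00) and GC correction (1.02), without R1881 replicate 1 (1.01) and without combination replicate 2 (1.01). ARFGAP3, a GTPase-activating protein of the Golgi, was at 142 and 139 CPM with R1881 alone, 106 and 113 CPM with namoline, 138 and 113 CPM with TCE-5002, and 202 and 204 CPM with the combination. Its interaction was 1.05 ± 0.16 (adjusted p = 8.1e-05) and dropped below 2-fold under GC correction (0.96) and without TCE-5002 replicate 2 (0.89). Both genes overlap a neighbour, ARSG on the opposite strand of WIPI1 and PACSIN2 on the strand of ARFGAP3, whose counts reach at least 10% of the member's.

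Among members with no call in any of the 3 comparisons with R1881 alone, the interaction was past both thresholds for IGF1R (-2.08 ± 0.19), GNMT, a methyltransferase (-1.93 ± 0.25), STK39, a kinase that acts on ion cotransporters (-1.67 ± 0.18), LRIG1, which restrains growth factor receptors (-1.56 ± 0.18), and the ubiquitin ligase HERC3 (-1.39 ± 0.16), among others. The condensin subunit NCAPD3 and the centrosomal gene MPHOSPH9 were higher with namoline by the adjusted p alone (0.79 ± 0.14 and 0.63 ± 0.12) and had combination values of -0.07 ± 0.14 and -0.05 ± 0.12. MAK, a kinase first found in male germ cells, ran between 3.003 and 6.11 CPM in C4-2 with no call. SPOCK1, a secreted proteoglycan, was under 1 CPM in all 8 C4-2 libraries. The non-coding RNA PART1 was at 1.83 and 0.974 CPM with R1881 alone and at 0.397 and 0.313 CPM with the combination. The PART1 span overlaps that of PDE4D on the opposite strand.

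**Figure D4:**
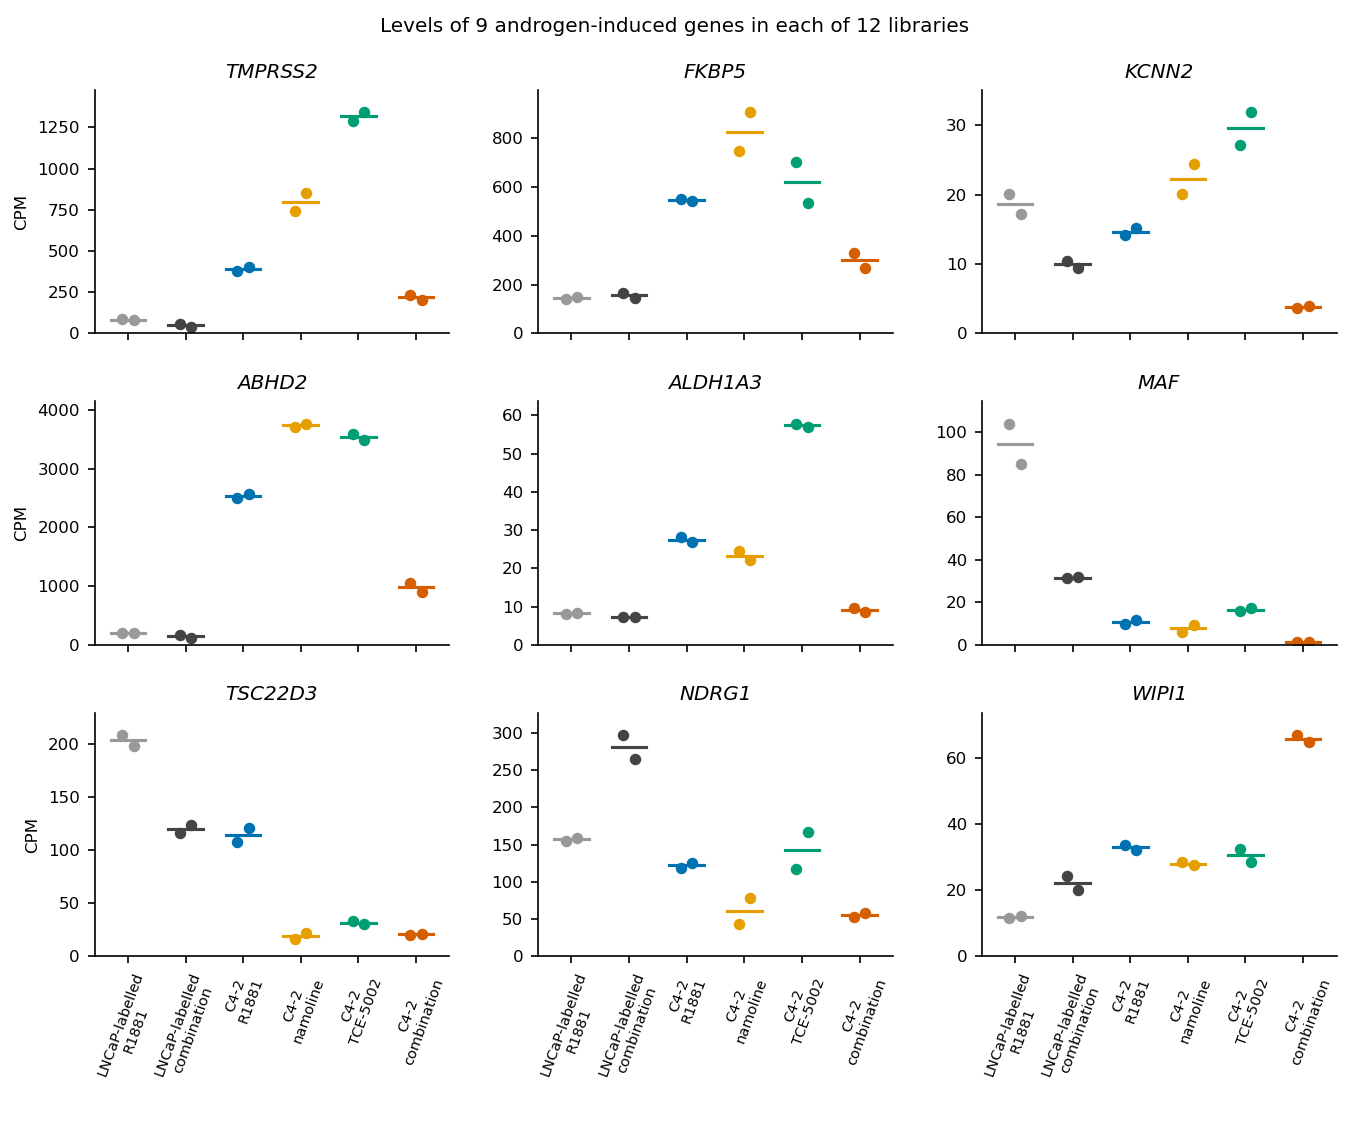
Points are CPM in each of the 12 libraries for 9 members, on linear axes from 0, with the mean of the 2 libraries of a group as a line. TMPRSS2, KCNN2, ABHD2 and FKBP5 show the highest mean with a single inhibitor and the lowest C4-2 mean with the combination, TSC22D3 lies low in each of the 3 treated C4-2 groups, and WIPI1 is highest in C4-2 with the combination.

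Comparing TCE-5002 with namoline directly in C4-2, 3 members were higher with TCE-5002 (6.82%, against 2.53% of all genes) and 1 was lower (2.27%, against 2.42% of all genes), together 4 against 4.95%. With the adjusted p as the one threshold 7 were higher (9.25% of all genes) and 11 lower (8.91%), together 18 against 18.2%. ALDH1A3 was higher by 1.32 ± 0.13 (adjusted p = 2.6e-05), NDRG1 by 1.23 ± 0.21 (adjusted p = 0.0013) and MAF by 1.11 ± 0.20 (adjusted p = 0.0018). The NCAPD3 difference was -1.27 ± 0.14 (adjusted p = 5.1e-05), at 76.2 and 75.3 CPM with TCE-5002 against 159 and 211 CPM with namoline. The NCAPD3 span overlaps those of JAM3 and VPS26B on the opposite strand. Without namoline replicate 1, MAF (0.85) and NDRG1 (0.90) lost the call, and NDRG1 did so without TCE-5002 replicate 2 (0.95). TMPRSS2 was higher with TCE-5002 by the adjusted p alone (0.74 ± 0.12, adjusted p = 8.7e-04), and FKBP5 did not pass (-0.40 ± 0.15, adjusted p = 0.072). The 2 TCE-5002 libraries stood farther apart than any other pair of replicates, with a chi-square statistic per gene of 27.9 against 3.61 to 9.76 in the other groups, and the difference between them followed GC content with a Spearman correlation of -0.50 across genes, which are not independent replicates.

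In the libraries labelled LNCaP, 43 members were tested, PART1 being too scarce. The combination raised 1 (2.33%, against 7.44% of all genes) and lowered 6 (14%, against 11.3% of all genes), and the median member changed by -0.16 against -0.0049 over all genes. Without the limit on fold change 9 were higher (28% of all genes) and 18 lower (28.2%), together 27 against 56.2% of all genes. Without replicate 1 of the combination the median was -0.27. EAF2 rose by 1.47 ± 0.36 (adjusted p = 8.1e-04, and 1.37 without that replicate), from 0.837 and 1.32 CPM to 3.09 and 2.69 CPM. It was the sole member that rose.

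HPGD, which breaks down prostaglandins, fell by 2.42 ± 0.38 (adjusted p = 1.8e-06, and by 2.38 without that replicate), from 2.93 and 4.82 CPM to 0.666 and 0.710 CPM. SPOCK1 fell by 2.07 ± 0.53 (adjusted p = 0.0013, and by 2.46), from 1.53 and 1.41 CPM to 0.424 and 0.254 CPM. AZGP1 fell by 1.959 ± 0.26 (adjusted p = 9.1e-08, and by 2.48), from 8.14 and 9.51 CPM to 2.91 and 1.52 CPM. All 3 were scarce in these libraries. MAF was more abundant and fell by 1.52 ± 0.12 (adjusted p = 1.8e-12, and by 1.52), from 104 and 84.9 CPM to 31.5 and 31.8 CPM. CHRNA2 (-1.32) and PMEPA1 (-1.07) fell as well, PMEPA1 reading -1.10 without replicate 1 and falling short of 2-fold under GC correction (-0.95), and CHRNA2 losing the call without combination replicate 2 (-0.61, adjusted p = 0.15) and reading -2.52 without replicate 1. TMPRSS2 was at 84.1 and 78.2 CPM with R1881 alone and 56.6 and 40.0 CPM with the combination (-0.70 ± 0.12, adjusted p = 1.5e-05, and -0.97 without replicate 1). FKBP5 was at 139 and 148 CPM and at 166 and 144 CPM (0.17 ± 0.10, adjusted p = 0.17, and 0.056 without replicate 1).

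The difference between the lines in the combination effect was tested in a fit over the 8 libraries concerned. It was negative, that is lower in C4-2, and past both thresholds for 15 members (34.1%, against 13.9% of all genes) and positive for 1 (2.27%, against 11.4%), together 16 against 25.3%. Without the limit on fold change it was negative for 21 (47.7%, against 25.9% of all genes) and positive for 1 (2.27%, against 21.7%). Together these were 22, against 47.6% of all genes. PLPP1 had the lowest value, -2.13 ± 0.16 (adjusted p = 1.8e-10), since in the LNCaP-labelled libraries it stood at 10.6 and 12.2 CPM with R1881 alone and 11.6 and 10.8 CPM with the combination. NDRG1 was at -2.11 ± 0.12 (adjusted p = 4.0e-12), and in the LNCaP-labelled libraries it went from 155 and 159 CPM to 297 and 264 CPM. SGK1 was at -1.99 ± 0.48 (adjusted p = 0.0013), with 2.88 and 2.05 CPM before and 2.42 and 2.44 CPM after in the LNCaP-labelled libraries, and TSC22D3 was at -1.84 ± 0.13 (adjusted p = 6.3e-11). TSC22D3 stood at 208 and 198 CPM in the LNCaP-labelled libraries with R1881 alone and at 116 and 123 CPM with the combination. FKBP5 was at -1.11 ± 0.14 (adjusted p = 6.3e-07), and TMPRSS2 showed no difference past the test (-0.21 ± 0.16, adjusted p = 0.30, and 0.036 without LNCaP combination replicate 1). HPGD was the one positive call, at 1.12 ± 0.42 (adjusted p = 0.031), having gone from 17.7 and 15.6 CPM to 8.34 and 5.82 CPM in C4-2. Without LNCaP combination replicate 1, the values of PLPP1 (-2.10), NDRG1 (-2.04), SGK1 (-2.01), TSC22D3 (-1.90) and FKBP5 (-1.02) kept their calls, while HPGD (1.06) did not. That HPGD call was also lost without LNCaP combination replicate 2 (1.16) or LNCaP R1881 replicate 2 (0.82). The same held without C4-2 R1881 replicate 2 (1.02) or C4-2 combination replicate 1 (0.82). The FKBP5 call was lost under 5 of 16 alternatives, among them GC correction (-0.85) and all 12 libraries in 1 fit (-0.98). The 16 include the adjusted p alone, under which no call could be lost.

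**Figure D5:**
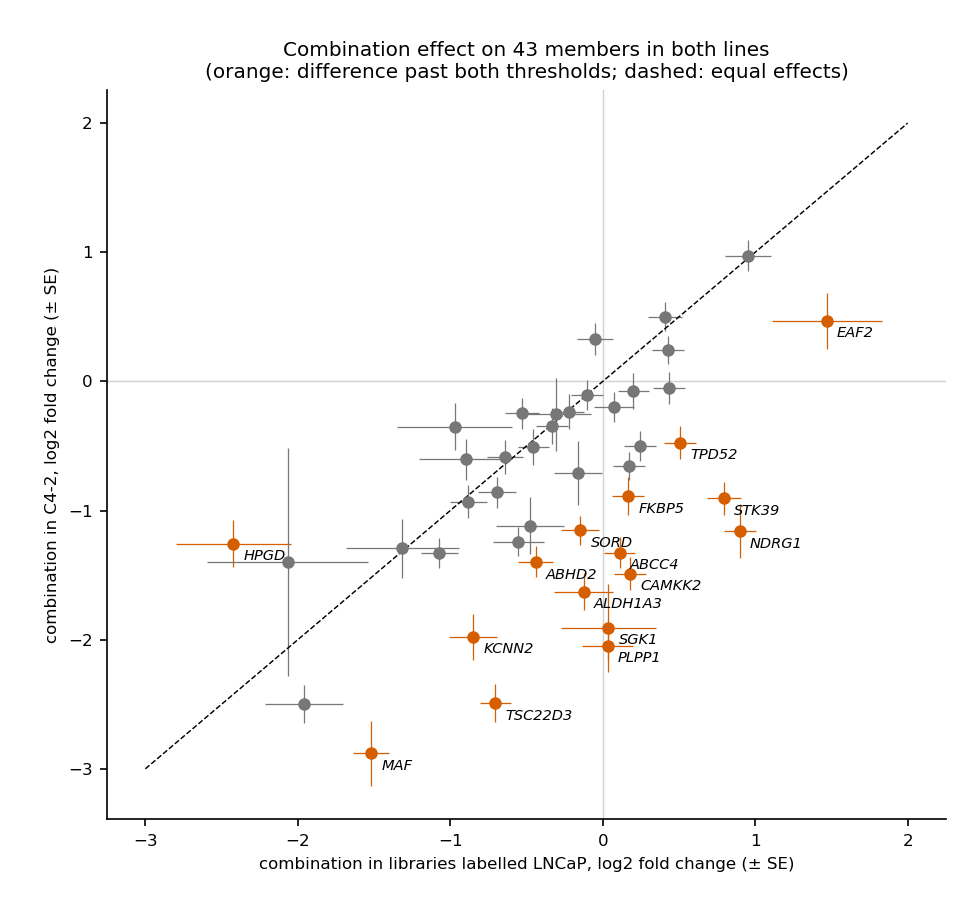
The combination effect on the log2 scale in the libraries labelled LNCaP (horizontal axis) is plotted against that in C4-2 (vertical axis) for the 43 members tested in both, with standard errors as bars. The 16 members in orange differed between the lines past both thresholds, 15 of them below the dashed line of equal effects and HPGD above it.

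With R1881 alone, 26 members were higher in C4-2 than in the LNCaP-labelled libraries (59.1%, against 24.3% of all genes) and 4 were lower (9.09%, against 26.2% of all genes), together 30 against 50.5%. By the adjusted p alone 32 were higher (37.8% of all genes) and 8 lower (39%), together 40 against 76.8%. The median member was higher in C4-2 by 1.45 (log2), against 0.00052 over all genes. ABHD2 was higher by 3.69 ± 0.12 (adjusted p = 1.9e-18), with 196 and 204 CPM in the LNCaP-labelled libraries. ZBTB16 was higher by 3.65 ± 0.16 (adjusted p = 1.0e-15), at 47.2 and 51.5 CPM in C4-2 against 4.88 and 3.14 CPM. PLPP1 was higher by 3.50 ± 0.11 (adjusted p = 9.6e-19) and GUCY1A1 by 3.13 ± 0.11 (adjusted p = 9.6e-18), the latter at 120 and 121 CPM against 14.98 and 13.1 CPM.

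The 4 members that were lower in C4-2 were MAF, IGF1R, SPOCK1 and BMPR1B. The MAF difference was -3.10 ± 0.12 (adjusted p = 1.2e-16). IGF1R, the receptor of insulin-like growth factor, differed by -3.06 ± 0.10 (adjusted p = 1.4e-18), at 16.7 and 17.5 CPM against 148 and 144 CPM. SPOCK1 differed by -1.58 ± 0.56 (adjusted p = 0.013), which did not hold without C4-2 R1881 replicate 2 (-0.93, adjusted p = 0.19) or with DESeq2 (-1.71, adjusted p = 0.057). BMPR1B, a receptor of bone morphogenetic proteins, differed by -1.48 ± 0.18 (adjusted p = 8.5e-08), at 5.43 and 4.61 CPM against 15.1 and 13.7 CPM. TMPRSS2 was higher in C4-2 by 2.29 ± 0.12 (adjusted p = 1.2e-14) and FKBP5 by 1.956 ± 0.10 (adjusted p = 1.6e-14). The lines also differed in FOXA1, at 375 and 402 CPM against 53.5 and 54.5 CPM, and in the marker genes given above, and the part of these in the members' levels was not tested.

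Other genes of the pathway were read from lists given by name. FOXA1 fell with the combination in C4-2, to 97.8 and 85.1 CPM (-2.11 ± 0.12, adjusted p = 1.1e-08).

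Of 16 cofactors and chaperones of androgen-driven transcription, FOXA1 among them, 3 rose with namoline (5.17% of all genes rose), 1 rose with TCE-5002 (5.04%), and 1 rose and 2 fell with the combination (8.87% and 12.8%). Those that rose with namoline were FKBP4 (1.58), an Hsp90 co-chaperone, and the Hsp90 genes HSP90AA1 (1.03) and HSP90AB1 (1.02). FKBP4 was also the gene that rose with TCE-5002 (1.34) and with the combination (1.25). HOXB13, a prostate homeobox factor, fell with the combination beside FOXA1 (-1.83). The interaction was negative for 7 of the 16 and positive for 2 (18.6% and 16.7% of all genes). By the adjusted p alone 8 were higher and 4 lower with namoline (18.7% and 16.3% of all genes). With TCE-5002 7 were higher and 5 lower (19.9% and 16.7%). Of the 4 kallikreins, 2 rose with TCE-5002 (5.04% of all genes) and 2 fell with the combination in C4-2 (12.8%). The 3 tested in the LNCaP-labelled libraries fell with it (11.3%), and those calls held without replicate 1. Of 8 genes listed as repressed by androgen, 6 were tested in C4-2. Of these, 2 rose with namoline (5.17% of all genes), 4 rose with TCE-5002 (5.04%), and 5 fell with the combination (12.8%), namely FOLH1, UGT2B15, CAMK2N1, MET and BCHE. In the LNCaP-labelled libraries 7 were tested, of which BCHE and UGT2B15 rose with the combination (7.44% of all genes), UGT2B15 losing the call without replicate 1. Of 5 steroid receptors listed, NR3C1 among them, 2 were tested in C4-2 and none was called there with either inhibitor or both by edgeR. By the adjusted p alone 1 was higher with TCE-5002 (19.9% of all genes) and 1 lower with the combination (25.6%).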

How the data were processed

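Polyadenylated RNA was sequenced in paired ends by the authors, who filtered reads by quality, trimmed adapters with Trim Galore, aligned to GRCh38 with STAR and counted fragments per gene. The deposited values are whole counts per gene, not normalised. Per the file headers they were made with featureCounts v1.5.0-p1 on Ensembl release 83, with no strand option. Strand therefore could not separate reads where genes overlap on opposite strands.

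Here, counts were tested with the quasi-likelihood F test of edgeR 4.0.16 (limma 3.58.1, R 4.3.3) after filterByExpr and TMM scaling, and p-values were adjusted by Benjamini-Hochberg across every gene tested. The 4 C4-2 comparisons and the interaction used the 8 C4-2 libraries, the LNCaP comparison its own 4, and the comparisons between lines the 8 libraries with R1881 alone or the combination. Calls needed both an adjusted p below 0.05 and a log2 fold change of 1 or more in size. Standard errors were derived from each fold change and its F statistic. CPM used TMM factors over all 12 libraries. With 2 libraries per group, p-values lean on the spread shared across genes. Simulated counts in which 200 genes had been changed were used to test the steps.

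Groups came from library titles, because a protocol field describes siRNA work. Some genes of the lists are not reported here. The members and lists were chosen with earlier results of these data known. TMPRSS2 and FKBP5 were named whatever their values, and FOXA1 and NR3C1 could be; in each comparison the 4 highest and the 4 lowest called members with at least 1 CPM in the higher group were given in full, and any other member named with values was picked with those values known. The alternatives tried were no filter for low counts, RLE scaling, DESeq2 1.42.0, the replicate block, GC correction, the adjusted p alone, leaving out each library, and other sets of libraries in the fit. Promoter sequences are from RefSeq (GRCh38.p14).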

Additional observations from a re-analysis of the deposited data

Results flagged for a closer look

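The combination effect differed between C4-2 and the libraries labelled LNCaP for 16 members (36.4%, against 25.3% of all genes). It was tested as the difference of the 2 effects in 1 edgeR fit. The difference (C4-2 minus LNCaP, log2) was -2.13 for PLPP1, -2.11 for NDRG1, -1.99 for SGK1, -1.84 for TSC22D3, -1.75 for STK39, -1.72 for CAMKK2, -1.55 for ALDH1A3, -1.49 for ABCC4, -1.41 for MAF, -1.18 for KCNN2, -1.11 for FKBP5, -1.05 for SORD, -1.05 for EAF2, -1.03 for TPD52, -1.01 for ABHD2 and 1.12 for HPGD. The first 9 of these were called under all 16 alternatives run, among them the adjusted p alone, under which no call could be lost. Among the rest, KCNN2 kept its call under 15 of the 16, and FKBP5 and HPGD under 11 each. SORD and EAF2 kept theirs under 8 each, TPD52 under 7 and ABHD2 under 6. Without LNCaP combination replicate 1, ABHD2 (-0.80), SORD (-0.80), EAF2 (-0.97) and HPGD (1.06) lost the call. STK39 and NDRG1 were higher with the combination in the LNCaP-labelled libraries by the adjusted p alone (0.79 and 0.90) and lower in C4-2 (-0.91 and -1.16). Without that replicate the LNCaP-labelled values of STK39 and NDRG1 were 0.86 and 0.81.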

How the results depend on the processing

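Member counts past both thresholds stayed within 1.5 times of the reported ones except where named here. With the adjusted p alone they became 26 of 44 for namoline (6 reported), 22 for TCE-5002 (4), 32 for the combination in C4-2 (18), 18 for TCE-5002 against namoline (4) and 27 of 43 in LNCaP (7). Leaving out each library in turn gave 4 to 6 for namoline, 3 to 4 for TCE-5002, 17 to 22 for the combination, 2 to 6 for TCE-5002 against namoline (2 without namoline replicate 1), 31 to 33 for the interaction, 7 to 10 for the combination in LNCaP, 11 to 15 for the line difference (16) and 29 to 30 for the lines with R1881 alone. Of 5048 single-gene values under the alternatives other than the adjusted p alone, 82 lost a call, 36 gained one and 1 reversed: CHRNA2 in the line difference, reported at -0.01, called at 1.16 without LNCaP combination replicate 1 and not called at -0.74 without replicate 2. The cause was not tested. The line difference held the least firm calls, with 11 members under GC correction and with all 12 libraries in 1 fit, which moved its median over all genes by 0.13, and 12 with RLE scaling or DESeq2. Dropping the filter on low counts moved the median interaction over all genes by 0.13. CPM without TMM factors was 0.924 to 1.08 times the reported level. Replicate numbers did not pair the libraries: replicate differences correlated at -0.013 to 0.10 within C4-2 and at -0.00099 in LNCaP. With the replicate block the counts were 6, 4, 18, 4, 32, 7, 15 and 29 in the order above, alone or with GC correction (7, 3, 19, 4, 34, 6, 11 and 29). Members at a few counts per library, SPOCK1 and PART1 above all, are limited by depth.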
